A study of Homo sapiens with 4 samples.

Results

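The retinoblastoma and E2F pathway was examined through 7 genes: RB1, RBL2, RBBP4, TFDP1, E2F3, CCND1 and SKP2. All oligonucleotides annotated with one of these symbols were taken, which gave 8 of the 3048 oligonucleotides on the array. RB1 had 2 oligonucleotides, which are described apart, and each other gene had 1. All 8 were measured on all 4 arrays and passed the filter on low signals.

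The cells were SK-MEL28, an established human malignant melanoma cell line, and the question was whether electric pulses alone change the expression of genes of cancer development. Cells in suspension received 8 ECT pulses, as used in electrochemotherapy (1300 V/cm, 100 μs, 1 Hz), or 8 EGT pulses, as used in electrogene therapy (600 V/cm, 5 ms, 1 Hz), an aliquot of the same suspension received none, and RNA was isolated after 16 h. Exposed cells were labelled with Cy5 and untreated cells with Cy3 on every array, 2 for ECT pulses and 2 for EGT pulses, with no dye swap, so a dye effect of an oligonucleotide and an effect of the pulses cannot be told apart. By the methods the hybridisations were done in duplicate, and separate cultures are not named, so p-values measure only the spread between these arrays, which may be technical. Cisplatin, which the methods do not name for these cells, stands in the source label of every exposed sample but that of ECT array 1.

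The retinoblastoma protein RB1 and its relative RBL2 (p130) are pocket proteins that bind E2F transcription factors and hold genes of DNA replication silent. E2F proteins such as E2F3 bind DNA as dimers with a DP protein such as TFDP1, and RBBP4 (RbAp48) is a histone-binding protein that joins RB1 to chromatin complexes. Cyclin D1 (CCND1) with its kinases phosphorylates the pocket proteins and frees E2F, and SKP2, the F-box protein of an SCF ubiquitin ligase, marks the CDK inhibitor p27 for degradation. In melanoma this pathway is a frequent site of mutation, most often through the inhibitor CDKN2A or the kinase CDK4.

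E2F and DP dimers bind a short DNA element. A form of it stands in 1 of the promoters listed for E2F3 and in that listed for TFDP1, and these promoter sequences are shown for that reason. RefSeq promoters (GRCh38.p14, 250 bases before to 50 bases after each start) were searched on both strands for 4 forms of the element, TTTCCCGC, TTTCGCGC, TTTGCCGC and TTTGGCGC. At least 1 form was found in 1164 of 35116 promoters in the table (3.31%), and in 2 of the 9 promoters listed for 6 of the 7 genes. CCND1 had no promoter listed. For RB1 only the window chr13:48476200-48476499 was listed, so any other start of RB1 was not searched. The other promoter listed for E2F3 (chr6:20403364-20403663) had no match. The match in E2F3 was TTTCCCGC on the minus strand, over positions -53 to -46 from the start, and the match in TFDP1 was TTTCGCGC on the minus strand, over positions -120 to -113. The 250 bases before the start are given 5′ to 3′ on the plus strand, with capitals for the reverse complement of the matched form. They lie at chr6:20401629-20401878 for E2F3 and at chr13:113584503-113584752 for TFDP1.
E2F3: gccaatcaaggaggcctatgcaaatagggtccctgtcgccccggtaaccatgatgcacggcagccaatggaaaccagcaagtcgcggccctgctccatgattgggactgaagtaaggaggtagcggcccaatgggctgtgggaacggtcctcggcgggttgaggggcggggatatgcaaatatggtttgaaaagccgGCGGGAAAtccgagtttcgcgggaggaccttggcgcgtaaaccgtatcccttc
TFDP1: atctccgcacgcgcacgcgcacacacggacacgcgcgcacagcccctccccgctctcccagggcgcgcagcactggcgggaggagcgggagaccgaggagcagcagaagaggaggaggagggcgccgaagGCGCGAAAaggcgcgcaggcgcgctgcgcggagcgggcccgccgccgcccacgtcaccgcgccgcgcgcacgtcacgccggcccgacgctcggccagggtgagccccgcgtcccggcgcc
A match is a description of these letters. No binding was measured.

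Each array held 12788 spots, and the 8 oligonucleotides had 4 or 8 spots each. Of their 176 spots on 4 arrays, 168 were kept, against 37.3% to 47.7% of all spots per array. The median spot had a Cy5 intensity of 1.64 to 2.20 times the local background and a Cy3 intensity of 2.21 to 5.38 times, so many oligonucleotides were close to the limit of 2 times. The number of arrays limits the precision of all values. Across the oligonucleotides measured on both arrays of a pair, which are not independent replicates, the log2 ratios of ECT array 1 and EGT array 2 correlated at r = 0.740 and those of the other pairs at 0.401 to 0.482. Whether the arrays share 1 preparation of untreated cells is not given in the sources used here. Of the melanocyte lineage markers on the array, 7 of 7 oligonucleotides were measured on all 4 arrays, against 1164 of all 3048. They were those of CD63, MITF, MLANA, S100B, SOX10, TYR and TYRP1. Also measured were 3 of 4 of T cells, 3 of 4 of endothelium (2 of KDR and 1 of VWF) and 2 of 2 of epithelium. The epithelial markers KRT19 and CDH1 were bright in untreated cells, with KRT19 at 1469 to 1802 times the background in Cy3 and CDH1 at 315 to 595 times. Of T cells, CD28 was at 83.2 to 145 times, CD8A at 58.4 to 97.7 and CD2 at 3.88 to 8.42. The KDR oligonucleotides were at 92.6 to 174 times (VM_H300003121) and 4.41 to 10.2 times (VM_H200002112), and VWF at 8.01 to 14.8. Melanocyte markers ran from 10.6 (MLANA) to 494 times (CD63), so brightness was not particular to them.

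Values are log2 ratios of exposed over untreated cells, after loess normalization within each array, so that 0 is the level of most oligonucleotides of the array and 1.5-fold is 0.58. In bulk RNA, fewer cells with a transcript and less of it per cell cannot be told apart. The rule used here for a changed gene was at least 1.5-fold on both arrays of a pulse type in the same direction. It is 1 reading of the study's filter, whose wording leaves others open, and the study's own lists hold genes that miss it. After ECT pulses 0 of the 8 oligonucleotides passed it, against 0.935% of all 1176 measured, and after EGT pulses 0 of 8, against 0.603% of 1327. In limma with Benjamini-Hochberg adjustment, 0 of 8 passed an adjusted p of 0.05 after ECT pulses (0% of all), EGT pulses (0% of all) or in the mean of both pulse types (0.687% of all 1164). The count for the mean changed with the processing. It was 4 of 8 with median centring (34.5% of all), 4 without ECT array 2 (6.44%), 3 with arrays scaled (6.53%), 2 with no background correction (4.73%), 3 in the authors' normalized values (4.75%), 2 with an offset of 0 (4.64%) and 1 with plain subtraction (0.773%).

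Below these thresholds, 5 of the 8 oligonucleotides kept 1 sign on all 4 arrays. RB1 (VM_H200006192), RBL2, RBBP4 and E2F3 were above 0 on all 4 arrays, 4 of 8 oligonucleotides against 17.8% of all, while with median centring in place of loess RBBP4 (-0.13) and E2F3 (-0.17) were below 0 on EGT array 1 and 2 of 8 were above 0 on all arrays, against 21.0% of all. SKP2 was below 0 on all 4, 1 of 8 against 20.2%. With median centring TFDP1 was too, 2 of 8 against 34.5%, and in the authors' normalized values, where SKP2 was at 0.05 on ECT array 2, none was (0 of 8). The median mean ratio of the 8 was 0.35, against -0.01 over all oligonucleotides. It was 0.42 after ECT pulses, against -0.02 over all, and 0.20 after EGT pulses, against -0.01 over all. At an unadjusted p under 0.05 in limma, 5 oligonucleotides, those of RB1 (VM_H200006192), RBL2, RBBP4, E2F3 and CCND1, were higher after ECT pulses (6.72% of all were) and 1, of TFDP1, was lower (9.69%). After EGT pulses 3 were higher, the first 3 of these (6.41%), and 0 lower (9.27%). In the mean of both pulse types the same 5 were higher (12.0%) and 2, of TFDP1 and SKP2, were lower (16.1%). Of the 7 genes, 5 (RB1, RBL2, RBBP4, TFDP1 and SKP2) stand in the study's own lists, which were chosen on these arrays, so these counts are not independent evidence of a direction.

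**Figure D1:**
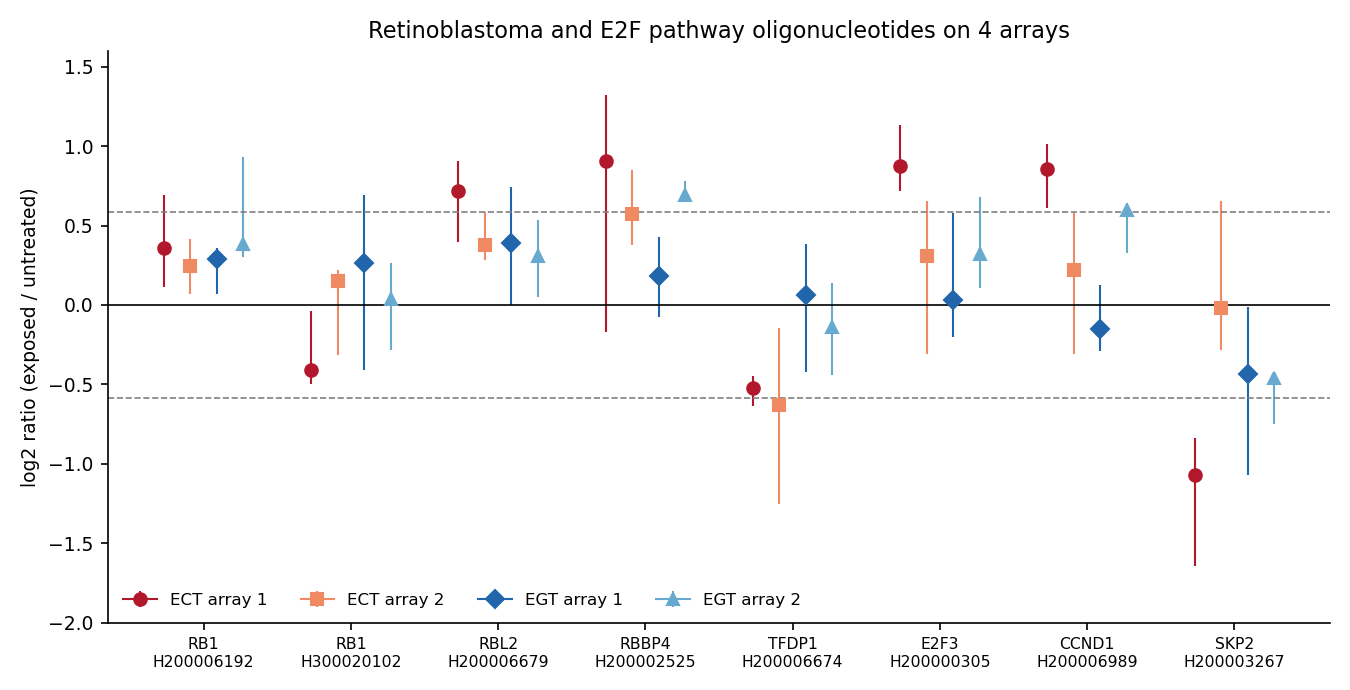
Log2 ratio of exposed over untreated cells (y axis) for each of the 8 oligonucleotides (x axis) on ECT arrays 1 and 2 and EGT arrays 1 and 2. Points are the median of the kept spots, bars run from the lowest to the highest kept spot and dashed lines mark 1.5-fold; RBBP4 was between 0.18 and 0.91 on the 4 arrays, and SKP2 between -1.07 and -0.02.

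RB1, the pocket protein that gives the pathway its name, was read by a dim and a brighter oligonucleotide, and they did not give the same picture. The dim one, VM_H200006192, had log2 ratios of 0.36 and 0.24 after ECT pulses (arrays 1 and 2) and 0.29 and 0.38 after EGT pulses (arrays 1 and 2). All 4 arrays were above 0 and lay close together in the setting used here. With a background offset of 0 they were 0.75 and 0.53 (ECT arrays) and 0.60 and 0.75 (EGT arrays), larger and wider apart. With all spots kept, EGT array 1 was at 0.02. The closeness and the small SDs thus depend on the setting and are not read as agreement of arrays. The values that follow are those of the setting used here. The ECT mean was 0.30 ± 0.08 (SD, n = 2), with an adjusted p of 0.227 in limma (Benjamini-Hochberg). For EGT pulses it was 0.33 ± 0.07 (SD, n = 2), with an adjusted p of 0.254 in limma. Over both pulse types the mean of 0.32 (SE 0.07, 1.25-fold) came closest to the threshold, with an adjusted p of 0.0659 in limma.

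These ratios came from spots near the background. The median spot intensity of VM_H200006192 on ECT array 1 was 52 for exposed cells and 104 for untreated cells. On ECT array 2 it was 41.5 for exposed and 52 for untreated cells, and only 2 of 4 spots were kept. The EGT arrays gave 50 for exposed and 72 for untreated cells on array 1, and 67.5 for exposed and 53 for untreated cells on array 2. In Cy5 the spots were at 2.51 to 4.5 times the local background and in Cy3 3.76 to 6.93 times. With plain subtraction of the background the 4 ratios were 0.82, 0.65, 0.67 and 0.85, past 1.5-fold on both arrays of each pulse type. The authors' normalized values were 0.56 and 0.54 on the ECT arrays, with 0.42 and 0.82 on the EGT arrays.

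The brighter RB1 oligonucleotide, VM_H300020102, had intensities of 133 to 252.5 in exposed cells and 275.5 to 549.5 in untreated cells, and all of its spots were kept. Its log2 ratios were -0.41 and 0.15 after ECT pulses (arrays 1 and 2) and 0.27 and 0.04 after EGT pulses (arrays 1 and 2). The ECT arrays therefore disagreed in sign. The ECT mean was -0.13 ± 0.40 (SD, n = 2) and the EGT mean 0.15 ± 0.16 (SD, n = 2), with adjusted p of 0.680 and 0.666 in limma. Over both pulse types the mean was 0.01, with a 95% confidence interval of -0.25 to 0.28. The background step hardly moved the mean of this oligonucleotide over 4 arrays. It stayed between -0.03 and 0.02 under 6 ways of processing, 5 that differ in the handling of background and the authors' own. Single arrays moved more, with EGT array 1 at 0.08 in place of 0.27 when all spots were kept. With plain subtraction ECT array 1 was at -0.50 in place of -0.41.

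VM_H200006192 was above VM_H300020102 on every array, by 0.77 and 0.09 after ECT pulses (arrays 1 and 2) and 0.02 and 0.34 after EGT pulses (arrays 1 and 2). In the authors' normalized values the gaps were 0.96, 0.50, 0.20 and 0.81. With no spot left out for high local background the order turned on EGT array 1, where VM_H200006192 was at 0.02 and VM_H300020102 at 0.08. The mean absolute gap of RB1 was 0.31, and the median gap of the 28 genes with 2 oligonucleotides measured on all arrays was 0.24, with 5 of them above RB1. The gap of RB1 was thus above the median of such genes without being the widest. The sequences of the oligonucleotides were not used here, so where on the RB1 transcript each one binds is not given.

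**Figure D2:**
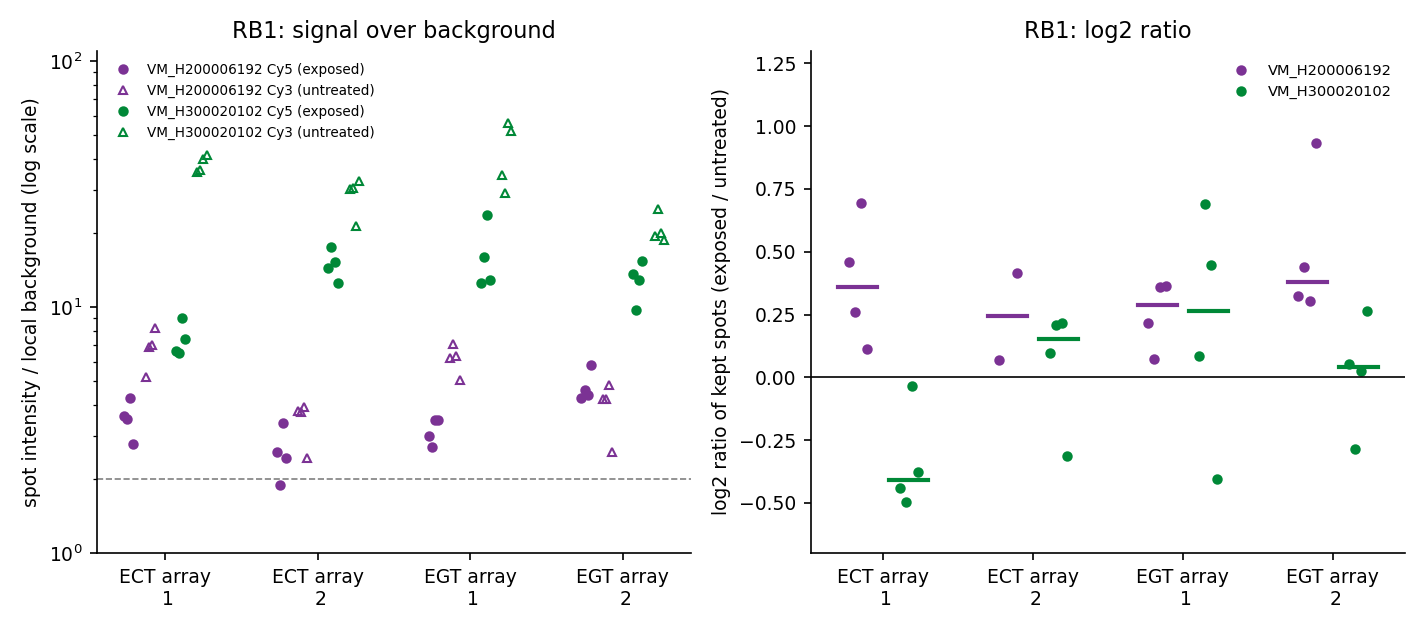
Left, intensity over local background (y axis, log scale) of each spot of both RB1 oligonucleotides on the 4 arrays, for exposed cells (Cy5, filled) and untreated cells (Cy3, open), with the limit of 2 times dashed. Right, log2 ratio of exposed over untreated cells of each kept spot, with bars at the medians; VM_H200006192 was above 0 on all 4 arrays (0.24 to 0.38) and VM_H300020102 was at -0.41 on ECT array 1 and at 0.04 to 0.27 on the others.

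RBL2, the pocket protein that acts mainly in resting cells, was one of the brightest oligonucleotides on the array. Its log2 ratios were 0.72 and 0.37 after ECT pulses (arrays 1 and 2) and 0.39 and 0.31 after EGT pulses (arrays 1 and 2), with 8 of 8 spots kept on each. All 4 arrays lay above 0, ECT array 1 farthest. The ECT mean was 0.55 ± 0.24 (SD, n = 2, 1.46-fold) with an adjusted p of 0.190 in limma, and the EGT mean was 0.35 ± 0.06 (SD, n = 2, 1.27-fold) with an adjusted p of 0.267. Over both, RBL2 had a mean of 0.45 (SE 0.08) and an adjusted p of 0.0553 in limma.

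The intensities of RBL2 were high in both channels but below the limit of 65000. Its spots ran from 27040 to 60080 for exposed cells and from 40387 to 61455 for untreated cells. On ECT arrays 1 and 2 the medians were 37180 and 49297 for exposed cells, against 51010 and 49784 for untreated cells. On EGT arrays 1 and 2 they were 45641 and 50633 for exposed cells, against 58003 and 52975 for untreated cells. Before normalization the RBL2 ratio was thus below 0 on each array, at -0.39 and -0.01 after ECT pulses and at -0.35 and -0.05 after EGT pulses. The median of all kept spots was lower still, at -1.23 and -0.56 on the ECT arrays, with -0.84 and -0.21 on the EGT arrays. Only 5 oligonucleotides were above 30000 in both channels on all arrays, RBL2 included. Their median log2 ratios were 0.72 and 0.10 on the ECT arrays, with 0.34 and 0.30 on the EGT arrays. On ECT array 1 this median is the value of RBL2 itself. There TTYH1 and VM_H300021978 (0.75) were above RBL2, and VM_H300021533 (0.65) and VM_H200006429 (0.42) below it. On the other arrays the median, RBL2 included, was lower than RBL2. Of the 5, TTYH1, a membrane protein, had 1.46, 0.10, 0.82 and 0.55 on ECT arrays 1 and 2 and EGT arrays 1 and 2. The part of the intensity limit in the RBL2 ratio was not tested.

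**Figure D3:**
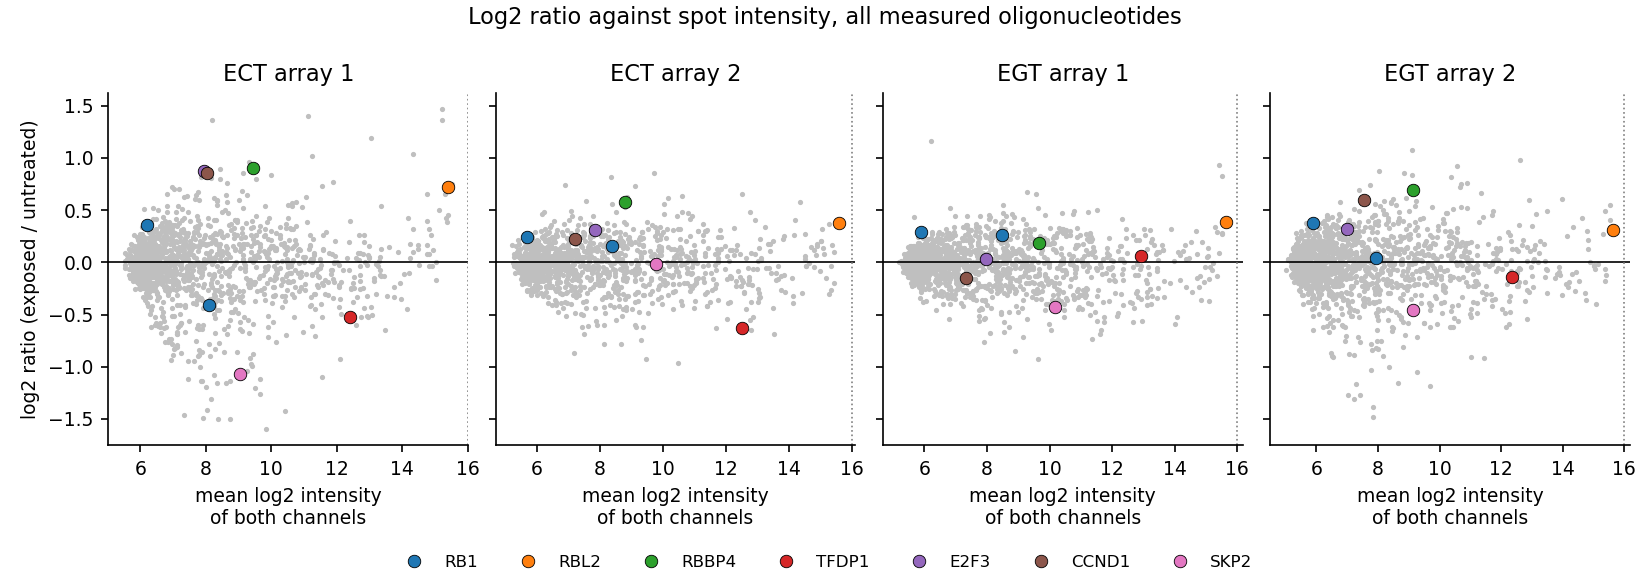
Log2 ratio of exposed over untreated cells (y axis) against the mean log2 intensity of both channels (x axis) for all measured oligonucleotides (grey) and those of the 7 genes (coloured) on the 4 arrays, with a dotted line at 16 on the x axis. RBL2 lies at the bright end of every array and the dim RB1 oligonucleotide at the faint end, while the other genes lie between them.

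RBBP4, the chromatin partner, had the highest mean of the 8 oligonucleotides in the setting used here. In the authors' values the means of RBL2 (0.62) and the dim RB1 oligonucleotide (0.59) were above that of RBBP4 (0.58), with plain subtraction that of the dim RB1 oligonucleotide was (0.74 against 0.67), and with median centring those of the dim RB1 oligonucleotide (0.53) and RBL2 (0.51) were (RBBP4 0.33). Its log2 ratios were 0.91 and 0.57 after ECT pulses (arrays 1 and 2) and 0.18 and 0.69 after EGT pulses (arrays 1 and 2). EGT array 1 was the lowest, and ECT array 1 and EGT array 2, the arrays most alike over all oligonucleotides, were the highest. The part of this likeness in the result was not tested. The median intensities were 556.5 and 416 for exposed cells on ECT arrays 1 and 2, against 910.5 and 484 for untreated cells. They were 576.5 and 631 for exposed cells on EGT arrays 1 and 2, against 1135 and 502.5 for untreated cells. At 23.8 to 95.6 times the background these spots were far from the low limit. Still, the 4 spots of ECT array 1 ran from -0.17 to 1.32, while those of EGT array 2 ran from 0.65 to 0.78.

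The ECT mean of RBBP4 was 0.74 ± 0.24 (SD, n = 2, 1.67-fold) with an adjusted p of 0.190 in limma. RBBP4 missed the 1.5-fold rule after ECT pulses only on ECT array 2, where it was 1.49-fold higher. For EGT pulses the mean was 0.44 ± 0.36 (SD, n = 2, 1.35-fold) with an adjusted p of 0.298 in limma. Over both pulse types the mean was 0.59 (SE 0.11, 1.5-fold) with an adjusted p of 0.0553 in limma. In the authors' normalized values RBBP4 was at 0.78 and 0.62 on the ECT arrays, with 0.16 and 0.76 on the EGT arrays, and so passed the 1.5-fold rule after ECT pulses, as did RBL2 (2 of 8, against 0.553% of all).

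E2F3, a DNA-binding activator of replication genes, had log2 ratios of 0.87 and 0.31 after ECT pulses (arrays 1 and 2) and 0.03 and 0.32 after EGT pulses (arrays 1 and 2). It was above 0 on all arrays, but 1.5-fold higher on ECT array 1 alone. The spots were moderately bright, with medians of 131 to 212.5 in exposed cells and 124 to 333.5 in untreated cells. The ECT mean was 0.59 ± 0.40 (SD, n = 2, 1.51-fold) with an adjusted p of 0.199 in limma. The EGT mean was 0.18 ± 0.20 (SD, n = 2) with an adjusted p of 0.629 in limma. Over both pulse types the mean was 0.38 (SE 0.11), with an adjusted p of 0.104 in limma.

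TFDP1, the DP partner of the E2F proteins, ran the other way after ECT pulses. Its log2 ratios were -0.52 and -0.63 after ECT pulses (arrays 1 and 2) and 0.06 and -0.14 after EGT pulses (arrays 1 and 2). Both ECT arrays were below both EGT arrays, an order whose share among all oligonucleotides was not computed and which is no evidence of a difference by itself. The intensities were high and far from both limits. Exposed cells gave 2662 and 3482 on ECT arrays 1 and 2, against 11240 and 9035 in untreated cells, and 5449 and 4359 on EGT arrays 1 and 2, against 10568 and 6271 in untreated cells. The spots of ECT array 1 agreed closely (-0.64 to -0.45), whereas those of ECT array 2 ran from -1.25 to -0.14.

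For TFDP1 the ECT mean was -0.57 ± 0.08 (SD, n = 2), 1.49-fold lower than in untreated cells, with an adjusted p of 0.188 in limma. Its smaller ECT ratio was 1.43-fold, short of 1.5-fold. The EGT mean was -0.04 ± 0.14 (SD, n = 2) with a 95% confidence interval of -0.28 to 0.20 and an adjusted p of 0.881 in limma. Over both pulse types the mean was -0.31 (SE 0.07), with an adjusted p of 0.0834 in limma, and it lay between -0.33 and -0.30 under the 6 ways of processing. With median centring it was -0.54, with an adjusted p of 0.00768 in limma.

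CCND1, the cyclin whose kinases phosphorylate RB1 and RBL2, had log2 ratios of 0.86 and 0.22 after ECT pulses (arrays 1 and 2) and -0.15 and 0.60 after EGT pulses (arrays 1 and 2). The EGT arrays thus disagreed in sign, and ECT array 1 and EGT array 2 were again the highest. Of its 8 spots, 8, 6, 5 and 7 were kept on these arrays. The medians were 216 and 121.5 for exposed cells on the ECT arrays, against 333.5 and 167 for untreated cells, and 99.5 and 196.5 for exposed cells on the EGT arrays, against 229.5 and 174 for untreated cells. The ECT mean was 0.54 ± 0.45 (SD, n = 2) and the EGT mean 0.22 ± 0.53 (SD, n = 2), with adjusted p of 0.295 and 0.668 in limma. The mean of both pulse types was 0.38 (SE 0.15), with an adjusted p of 0.174 in limma.

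SKP2, the substrate receptor that recognises p27, had log2 ratios of -1.07 and -0.02 after ECT pulses (arrays 1 and 2) and -0.43 and -0.46 after EGT pulses (arrays 1 and 2). It was more than 2-fold lower on ECT array 1 (2.10-fold) and level with untreated cells on ECT array 2. The medians were 200.5 and 667 for exposed cells on the ECT arrays, against 1520 and 1195 for untreated cells, and 621.5 and 414.5 for exposed cells on the EGT arrays, against 1994 and 778 for untreated cells. The ECT mean was -0.54 ± 0.74 (SD, n = 2), a spread larger than the mean itself, with an adjusted p of 0.320 in limma. For EGT pulses the arrays were close, at -0.44 ± 0.02 (SD, n = 2), with an adjusted p of 0.420 in limma, which takes the spread of all 4 arrays into account. The spots behind these medians were wider apart, from -1.07 to -0.02 on EGT array 1 and from -0.75 to -0.43 on EGT array 2. Without ECT array 1, the ECT value of SKP2 was -0.02. The authors' normalized values were -1.26 and 0.05 on the ECT arrays, with -0.53 and -0.57 on the EGT arrays. The mean of both pulse types was -0.49 (SE 0.16), with an adjusted p of 0.126 in limma.

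Of the 8 oligonucleotides, the dim one of RB1 varied most with the treatment of background. Its mean over 4 arrays was 0.32 with normexp and an offset of 50, 0.25 with the same and all spots kept, 0.53 with no background correction, 0.66 with normexp and an offset of 0, 0.74 with plain subtraction and 0.59 in the authors' values. On EGT array 1, 4 spots of other oligonucleotides with a local background over 1000 were left out. With these spots kept, the dim RB1 oligonucleotide was at 0.02 on that array in place of 0.29, and RBBP4 at -0.0022 in place of 0.18. E2F3 ran from 0.38 to 0.52 and CCND1 from 0.38 to 0.49 under the 6 ways of processing. The authors' values also differ in spot filter and normalization, so their gap to the others cannot be put down to background alone. In the authors' values the mean of the dim RB1 oligonucleotide (adjusted p = 0.0370), RBL2 (0.0370) and RBBP4 (0.0427) passed limma's threshold after Benjamini-Hochberg adjustment, 3 of 8 against 4.75% of all.

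**Figure D4:**
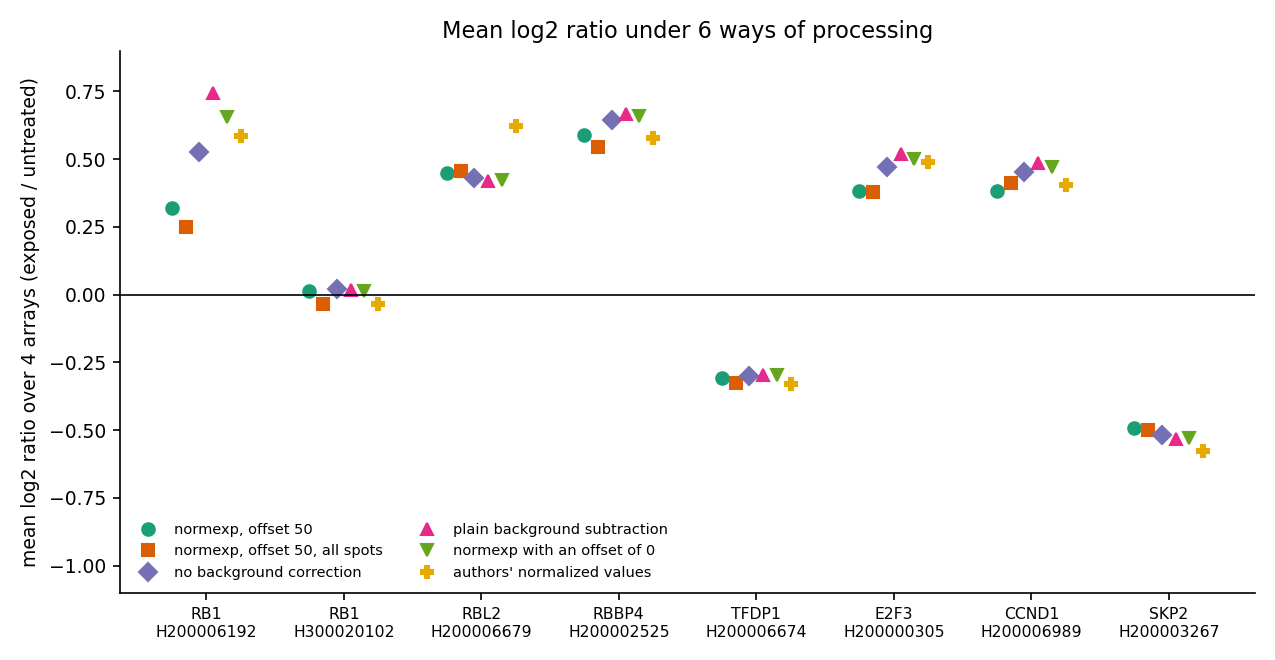
Mean log2 ratio over 4 arrays (y axis, exposed over untreated cells) of the 8 oligonucleotides (x axis) under 6 ways of processing, 5 of which differ in the handling of background and 1 of which is the authors' normalized values. The dim RB1 oligonucleotide runs from 0.25 to 0.74, and TFDP1 only from -0.33 to -0.30.

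ECT and EGT pulses were then set against each other, as the difference of their means. TFDP1 had the most negative difference of the 8, at -0.54 (SE 0.15, 95% confidence interval -0.90 to -0.17). It was the only one of the 8 at an unadjusted p under 0.05 (1.20% of all oligonucleotides were lower at that level), but its adjusted p was 0.989 in limma, and 0 of 1164 oligonucleotides passed for this difference (0% of all). The difference of TFDP1 ran from -0.57 to -0.49 over 14 alternative settings. None of these left out an array, and the replicate blocks and other spot minimums left it at -0.54, so the range does not measure its stability between arrays. For E2F3 it was 0.42 (-0.13 to 0.96), for CCND1 0.32 (-0.43 to 1.07), for RBBP4 0.30 (-0.23 to 0.84) and for RBL2 0.20 (-0.21 to 0.60). SKP2 had -0.10 (-0.89 to 0.70), the dim RB1 oligonucleotide -0.03 (-0.37 to 0.31) and the brighter one -0.28 (-0.81 to 0.25). Apart from that of TFDP1, each of these intervals included 0, and all but that of the dim RB1 oligonucleotide reached past 1.5-fold in at least 1 direction.

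In 6 lists of other pathway genes the median of the mean log2 ratios lay between -0.07 and 0.11, over the oligonucleotides measured on all 4 arrays. Of the other E2F and DP factors, 4 oligonucleotides were measured on all arrays, with a median mean of 0.02. On all 4 arrays 1 was above 0 (17.8% of all oligonucleotides were) and 2 were below 0 (20.2% of all). E2F5, a repressor-type E2F, had -0.05 and 0.15 on the ECT arrays, with 0.47 and 0.25 on the EGT arrays. E2F1, an activator, had -0.02 and -0.09 on the ECT arrays, with -0.14 and -0.30 on the EGT arrays. TFDP2, the other DP partner, was read by 2 oligonucleotides of opposite sign, with means of 0.13 (VM_H200002798) and -0.10 (VM_H300019955).

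The list of cyclins and kinases that phosphorylate pocket proteins also held CDC37, which is a chaperone of kinases and neither of these. On this list 4 of 10 oligonucleotides besides CCND1 were measured on all arrays, CDC37 included, and their median mean was 0.03. The means of CCND2 (0.05) and CCND3 (0.03), the other D-type cyclins, and of CDK2 (-0.03) were all close to 0, as was that of CDC37 (0.04). For the CDK inhibitors 3 of 5 were measured, with means of 0.13 for CDKN2D, -0.03 for CDKN1B, which encodes p27, and 0.01 for CDKN2B. Of the other parts of the SCF-SKP2 ligase 3 of 4 were measured. SKP1, its adaptor, had -0.89 and 0.10 on the ECT arrays, with 0.02 and -0.39 on the EGT arrays, whereas the scaffold CUL1 had a mean of -0.07 and the E2 enzyme CDC34 of 0.06. RBBP6 (0.05) and the deacetylase HDAC1 (-0.03) were the 2 of 8 other RB-binding partners measured.

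Of 36 oligonucleotides of E2F target genes, 16 were measured on all arrays, with 3 above 0 and 3 below 0 on all 4 and a median mean of 0.11. Over all oligonucleotides 17.8% were above 0 and 20.2% below 0 on all 4, so these counts were near the shares of the whole array. E2F1 is on this list and on that of the E2F factors. At an unadjusted p under 0.05 for the mean, 1 was higher (12.0% of all oligonucleotides were) and 2 were lower (16.1% of all). The higher one was AURKB, a mitotic kinase, at 1.01 and 0.48 on the ECT arrays and 0.06 and 0.76 in the EGT pair (adjusted p = 0.0834 in limma). The lower ones were TP73, a relative of p53, with a mean of -0.38 (adjusted p = 0.0565 in limma), and POLA2, a subunit of DNA polymerase alpha, with -0.32 (adjusted p = 0.113 in limma). MCM6, a part of the replicative helicase, had a mean of 0.25. In none of the 6 lists did a gene pass the 1.5-fold rule or an adjusted p of 0.05.

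The genes with the most similar values were sought among 999 other oligonucleotides with a symbol, by Euclidean distance over the 4 log2 ratios. Nearest to RBBP4 was AURKB (distance 0.20), followed by GLIPR1 (0.23), which had 0.80 and 0.55 on the ECT arrays, with 0.06 and 0.54 on the EGT arrays, and GNRHR (0.37). E2F3 had ELK1 (0.15), the chaperone HSP90AB1 (0.18) and NCKAP1 (0.32), and CCND1 had YWHAZ (0.17), HSPA2 (0.19) and HSP90AB1 (0.24). RBL2 was nearest to the heat shock protein DNAJB1 (0.19), to AOC3 (0.21) and to PITPNB (0.27).

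TFDP1 had HNF4G (0.27), LRRC32 (0.29) and CCNI (0.30) nearest to it, and SKP2 had HSF4 (0.22), GSTO1 (0.30) and SULT1C2 (0.32). For the dim RB1 oligonucleotide they were MAS1 (0.08), CBFB (0.12) and TRAM1 (0.13), and for the brighter one SPN (0.13), PEF1 (0.19) and TNFAIP3 (0.20). Among the 8 themselves the nearest pair was E2F3 and CCND1 (0.34), and both were higher on ECT array 1 than on the other arrays. The measure rests on 4 arrays.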

How the data were processed

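Expression was measured on 4 dual-colour arrays of spotted oligonucleotides, 2 per pulse type. The authors extracted median spot intensity and local background on a linear scale, and these scanner values were deposited. They also deposited a table of normalized log2 ratios, made by filtering of spots, a LOWESS fit and the median of replicate spots, which was used as an alternative. Which channel held exposed cells was checked against that table (r = 0.909 to 0.963 per array).

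All steps from the intensities on used limma 3.58.1 in R 4.3.3. Spots with a local background over 1000 were left out (4, all on EGT array 1). Background was corrected by normexp (offset 50). A spot was kept at 2 times the background or more in both channels, at no more than 65000, and with a background SD of at most 0.3 of its intensity. Loess had a span of 0.3 and 4 iterations, and the median of at least 2 kept spots was used. All 4 arrays entered 1 fit (lmFit, eBayes) with ECT and EGT as groups, and p-values were adjusted (Benjamini-Hochberg) over all oligonucleotides measured. This fit had no block and took the arrays as independent, although ECT array 1 and EGT array 2 were much alike (r = 0.740). The p-values, above all those for the mean of both pulse types, rest on this, and with a block those for the mean changed. The steps were run on simulated data with noise drawn separately for each array. That run does not cover arrays that deviate together, so it is no support for the p-values given here. The number of arrays limits the precision.

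Named genes are all oligonucleotides of the 7 genes, up to 4 genes with the largest absolute mean in each of 6 pathway lists, and the 3 oligonucleotides nearest in value to each of the 8. The genes, lists and background limit were chosen with earlier results of these data known. Alternatives were other background, filter, summary and normalization steps, the authors' values, a replicate block and each array left out.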

Additional observations from a re-analysis of the deposited data

How the results depend on the processing

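The 8 oligonucleotides kept their sign in all but 9 of 348 comparisons, many of which (as replicate blocks) cannot change it. With 1 array left out, the EGT value ran from -0.15 to 0.60 for CCND1 and from -0.14 to 0.064 for TFDP1, both with the other sign without EGT array 2, and the ECT value of RB1 (VM_H300020102) ran from -0.41 to 0.15, with the other sign without ECT array 1. With median centring the EGT value of that oligonucleotide was -0.023. Its mean over both pulse types was -0.035 with all spots kept, -0.032 with no spot filter but saturation, -0.016 with the mean of spots, -0.17 with median centring and -0.033 in the authors' values. The cause was not tested.

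The number of oligonucleotides passing limma's adjusted p depended on the setting. With median centring it was 117 for ECT pulses, with RB1 (VM_H200006192), RBL2 and TFDP1 among them, and 92 for EGT pulses, with that RB1 oligonucleotide among them, against 0 and 0 here. Of these, 22 were higher and 95 lower for ECT pulses, and 5 higher and 87 lower for EGT pulses. The authors' values gave 9 for EGT pulses. For the mean of both it was 8 here, 0 with all spots kept, 55 with no background correction, 0 with no spot filter but saturation, 5 with the mean of spots, 401 with median centring, 76 with arrays scaled, 60 in the authors' values and 54 with normexp and an offset of 0. Here 5 of them were higher and 3 lower, with median centring 115 and 286, and with arrays scaled 30 and 46. Leaving out 1 array gave 0 to 83, 83 without ECT array 2 (RBL2, RBBP4, E2F3 and SKP2 among them) and 0 without each of the others. RB1 (VM_H200006192) was among those called with no background correction, an offset of 0, plain subtraction, median centring, arrays scaled and the authors' values. RBBP4 was with all of these but plain subtraction and median centring, RBL2 with the last 3, and TFDP1 and SKP2 with median centring. For ECT minus EGT it was 0 under every setting run.

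Of the 8, past the 1.5-fold rule after ECT pulses (share of all oligonucleotides after the semicolon) were 1 with no background correction (RBBP4; 1.45%), 2 with plain subtraction (RB1 VM_H200006192, RBBP4; 2.3%), 1 with no spot filter but saturation (RBL2; 0.361%), 1 with the mean of spots (RBBP4; 0.68%), 1 with median centring (TFDP1; 2.81%), 1 with arrays scaled (RBBP4; 0.595%), 2 in the authors' values (RBL2, RBBP4; 1.34%) and 1 with an offset of 0 (RBBP4; 1.96%). After EGT pulses it was RB1 VM_H200006192 with plain subtraction (1; 1.66%) and an offset of 0 (1; 1.21%), and SKP2 with median centring (1; 2.41%). With 1 array left out the rule rests on 1 array and is easier to pass. It gave 1 to 5 after ECT pulses (5 without ECT array 2, 9.0% of all, and TFDP1 without ECT array 1, 2.24%) and 0 to 2 after EGT pulses (RBBP4 and CCND1 without EGT array 1, 4.68%, and 0 without EGT array 2, 1.29%).

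Over 1164 oligonucleotides ECT array 1 minus 2 correlated with EGT array 1 minus 2 at r = -0.44. That is the sign of crossed pairs (ECT 1 with EGT 2). Which pairing holds was not tested. With a replicate block 139 oligonucleotides passed for the mean of both pulse types, RBL2, RBBP4, E2F3, CCND1 and SKP2 among them (5 of 8, 11.9% of all), and with crossed pairing 134, RB1 (VM_H200006192), RBL2, RBBP4, E2F3 and CCND1 among them (5 of 8, 11.5%). For RBBP4 the adjusted p in limma was 0.000105 with the block and 0.0201 with crossed pairing. The crossed pairing and the offset of 0 were chosen after seeing the data. Dim spots limit the precision of one RB1 oligonucleotide (Cy5 at 2.51 to 4.5 times the background).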
